A study of Mus musculus with 16 samples.

Results

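Among the matrices of CD8+ T cells from a mouse kidney transplant study, 4 held a sizeable population of cells that carried Cd4 transcripts and no Cd8 transcripts. The members were chosen by measured counts: a cell was taken into this Cd4 gate when it had at least 1 raw unique molecular identifier (UMI, 1 counted transcript) of Cd4 and no UMI of Cd8a, Cd8b1, Foxp3, Cd79a or Lyz2. The gate took 3133 of the 38304 cells of the 4 matrices, or 8.18% (exact 95% Clopper-Pearson interval 7.91% to 8.46%, counting error only), out of 72639 cells in all 9 CD8 matrices of the series. They were compared with the 19311 cells of the same matrices that had a Cd8a or Cd8b1 UMI and neither Cd4 nor an excluded gene, called the Cd8 gate. For these 4 matrices the study placed kidneys of DBA/2J mice into C57BL/6J recipients, a wild-type pairing whose grafts are accepted without immunosuppression. The rejecting kidney and spleen files named below came from the reverse pairing, C57BL/6J kidneys in DBA/2J recipients. Viable sorted CD45+ leukocytes were profiled by droplet single-cell RNA-seq. The 4 matrices came from accepted kidney at 1 week (3 libraries), recipient spleen at 1 week (3 libraries), recipient spleen at 3 weeks (5 libraries) and a file labelled as accepted kidney at 24 weeks (3 libraries). Each library tag was treated as 1 mouse. The authors' own cluster calls decided which cells entered a CD8 matrix, so the gated cells are those left in these files and not the CD4 compartment of the tissue.

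CD4 T cells see antigen on major histocompatibility complex class II, are kept in their lineage by the transcription factor ThPOK (encoded by Zbtb7b), and help other leukocytes through CD40 ligand (encoded by Cd40lg) and cytokines. CD8 T cells see class I, depend on Runx3 and are armed with granule proteins such as Nkg7 and the granzymes. In transplanted organs CD4 cells recognize donor and recipient class II and can act as helpers, effectors or Foxp3+ regulators. Cells with a Foxp3 UMI were outside the gate. In mm10, Cd4 lies on chr6:124864692-124888221 (minus strand), and the adjacent genes Cd8a and Cd8b1 lie on chr6:71373427-71379173 and chr6:71322788-71337494 (both plus strand).

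The gated cells were unevenly spread over the files. They made up 2.46%, 2.71% and 1.47% of the 3 kidney libraries at 1 week. In the spleen at 1 week the shares were 8.78%, 6.84% and 9.72%, and in the spleen at 3 weeks 15.6%, 19.4%, 15.2%, 19.8% and 19.3%. The kidney-labelled 24-week libraries had 17.6%, 17.8% and 21.3%. The counts were 330, 995, 1046 and 762 cells in that order of files. The same gate found 129 cells in the other 5 CD8 matrices, of which 72 were in the kidney at 3 weeks, 21 in the spleen-labelled 24-week file and 36 in naive spleen. It took 0 of 2184 cells of rejecting kidney, a file without a single Cd4 UMI, and 0 of 726 of rejecting spleen, where every cell had a Cd8a or Cd8b1 UMI, so the content of these files fixed both values. These shares are set by the gate and by the authors' cell calls, and they are given as a description without a test.

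**Figure D1:**
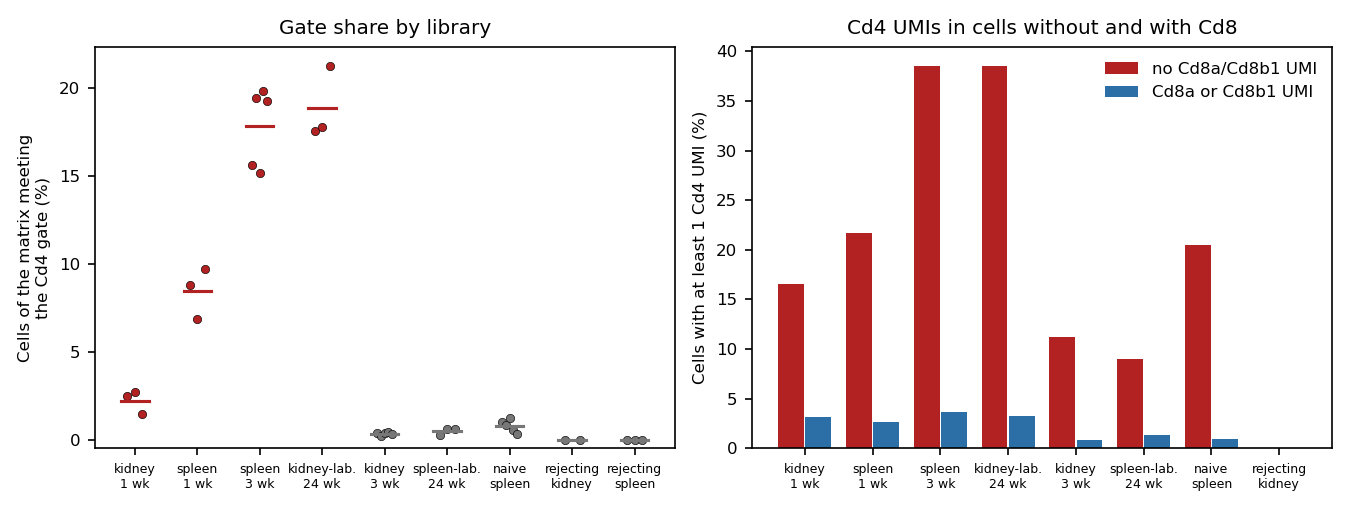
Left, percent of cells of each of the 9 CD8 matrices that met the Cd4 gate, 1 point per library with the mean as a bar (red, the 4 matrices described; grey, the other 5). Right, percent of cells with at least 1 Cd4 UMI among cells without (red) and with (blue) a Cd8a or Cd8b1 UMI, over all cells of a matrix. The 8 libraries of spleen at 3 weeks and of the kidney-labelled 24-week file lie between 15.2% and 21.3%, and in the 4 matrices Cd4 was found in 16.6% to 38.5% of cells without Cd8 against 2.62% to 3.70% of cells with it.

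Free RNA in droplets can place a Cd4 UMI in any cell, and the values bear on how far the gate can be read. Cd4 was detected in 16.6% of the cells without a Cd8 UMI in the kidney at 1 week, 21.7% in spleen at 1 week, and 38.5% both in spleen at 3 weeks and in the kidney-labelled 24-week file. The corresponding shares of cells with a Cd8 UMI were 3.11%, 2.62%, 3.70% and 3.25%, in cells with a higher median depth. The part of free RNA in either share was not tested. In the CD45+ matrix of naive spleen, 0.787% of 29995 B cells (Cd79a without Cd3e; median 2713 UMIs) carried a Cd4 UMI. In the matrices described here, cells picked the same way carried one far more often, 14.2% of 1137 in spleen at 1 week, 24.6% of 118 in spleen at 3 weeks and 21.4% of 42 at 24 weeks, and 0 of 11 in kidney at 1 week. These cells were outside the gate, and whether they were B cells, T cells without a detected Cd3e UMI or mixtures was not tested. Most members sat at the threshold, since only 27.3%, 19.8%, 32.7% and 32.5% had 2 or more Cd4 UMIs. Just outside the gate, 434, 138, 102 and 62 cells had both Cd4 and Cd8, and 85, 449, 161 and 55 cells with Cd4 alone were left out for a UMI of Foxp3, Cd79a or Lyz2. Of the 449 in spleen at 1 week, 150 had Foxp3, 315 had Cd79a and 42 had Lyz2.

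Members were somewhat shallower than the Cd8 gate, with a median of 2377 against 2624.5 UMIs in kidney at 1 week, 2321 against 2685 in spleen at 1 week, 3293 against 4140 in spleen at 3 weeks and 4179.5 against 5018 at 24 weeks. Summed per library, members gave between 318333 and 382652 UMIs in kidney at 1 week and between 573680 and 1489936 in the other 3 files. Levels are given as CPM, the UMIs of a gene scaled to the same total in every library's summed cells. The kidney-labelled 24-week file held little kidney RNA: the summed level of 20 kidney parenchyma genes was 0.671 to 2.20 CPM in its members, against 2.95 to 34.6 CPM in the 1-week kidney. At most 21 barcodes were shared by any pair of libraries. Doublets were not called, and cells with both Cd4 and Cd8 are not among the members.

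The gated cells carried the transcripts of helper T cells in all 4 files. The helper lineage list holds 12 genes, and 9 of 11 tested were higher in the Cd4 than in the Cd8 gate of the same libraries in kidney at 1 week, 9 of 9 in spleen at 1 week, 8 of 9 in spleen at 3 weeks and 8 of 9 at 24 weeks, with none lower. The medians of the log2 difference were 1.97, 1.72, 0.90 and 1.07, against 0.08, 0.17, 0.09 and 0.08 over all genes tested. Of all genes tested, 6.97%, 14%, 19.5% and 11.6% passed the same threshold in that order of files, and 4.53%, 10.6%, 13% and 7.46% were higher (edgeR quasi-likelihood test with the library as a block, Benjamini-Hochberg adjusted p under 0.05).

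Cd40lg separated the gates in every file. It stood at 34.6, 35.4 and 18.3 CPM in the Cd4 gate of kidney at 1 week and at 1.01, 0.672 and 0.754 CPM in the Cd8 gate. In spleen at 1 week it stood at 29.4, 22.7 and 12.3 CPM against 0.83, 1.72 and 0.735 CPM. At 3 weeks the spleen values were 37.4, 80.2, 85.1, 46.0 and 42.8 CPM in the Cd4 gate and at most 3.45 CPM in the Cd8 gate, and at 24 weeks 51.8, 39.2 and 69.1 CPM against at most 2.34 CPM. No library of the Cd8 gate reached any library of the Cd4 gate. Libraries of the gates did not overlap, in either direction, for 22.05%, 27.9%, 9.8% and 22.6% of all genes tested in that order of files. The log2 differences were 5.10 ± 0.49, 4.25 ± 0.42, 4.85 ± 0.26 and 5.12 ± 0.27 (± SE), with adjusted p of 1.2e-09, 4.3e-07, 3.2e-28 and 9.1e-16.

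Zbtb7b had the same direction in the graft but did not pass the threshold there. It stood at 15.7, 5.90 and 7.84 CPM in the Cd4 gate of kidney at 1 week. In the Cd8 gate it stood at 3.38, 2.59 and 2.44 CPM. The difference of 1.78 ± 0.60 missed the threshold (edgeR adjusted p = 0.071). The libraries did not overlap, which 22.05% of all genes tested in that file also showed, in either direction. Zbtb7b was higher in the Cd4 gate by 3.37 ± 0.34 in spleen at 1 week, 4.43 ± 0.25 in spleen at 3 weeks and 4.02 ± 0.32 at 24 weeks. Its level in the Cd4 gate was itself lower in the kidney than in the spleen at 1 week, where the libraries had 35.3, 24.4 and 23.8 CPM (log2 difference -1.51 ± 0.44, edgeR adjusted p = 0.012). The helper list was split there: of 9 genes tested, Zbtb7b and Il6ra were lower and Icos and Tnfrsf4 higher. Of all genes tested, 6.66% were lower and 19.1% higher. Without members that had an Nkg7 UMI, 7 helper genes were tested. Icos and Tnfrsf4 were then higher, and only Il6ra was lower. Tesc, which encodes a calcium-binding protein, stood 2.45 ± 0.20, 2.31 ± 0.11, 2.13 ± 0.12 and 2.27 ± 0.12 higher in the Cd4 gate of kidney at 1 week, spleen at 1 week, spleen at 3 weeks and the 24-week file.

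Maf and Izumo1r marked the Cd4 gate at every time. Maf, a transcription factor of interleukin-producing helper cells, had 276, 239 and 199 CPM in the Cd4 gate of kidney at 1 week against 31.5, 13.9 and 20.8 CPM in the Cd8 gate. In the spleen it had 132, 190 and 105 CPM in the Cd4 gate at 1 week and between 15.3 and 53.2 CPM at 3 weeks. The log2 differences from the Cd8 gate were 3.45 ± 0.16 and 4.38 ± 0.16 in kidney and spleen at 1 week, 2.1 ± 0.23 in spleen at 3 weeks and 2.81 ± 0.23 at 24 weeks. Izumo1r, a folate receptor family gene of regulatory and anergic CD4 cells, was higher by 1.93 ± 0.14, 2.60 ± 0.14, 1.91 ± 0.16 and 1.69 ± 0.16 in the same order. Gata3, which guides helper differentiation, was higher in the Cd4 gate in all 4 files, by 1.17 ± 0.20, 0.80 ± 0.16, 0.70 ± 0.15 and 0.84 ± 0.16.

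**Figure D2:**
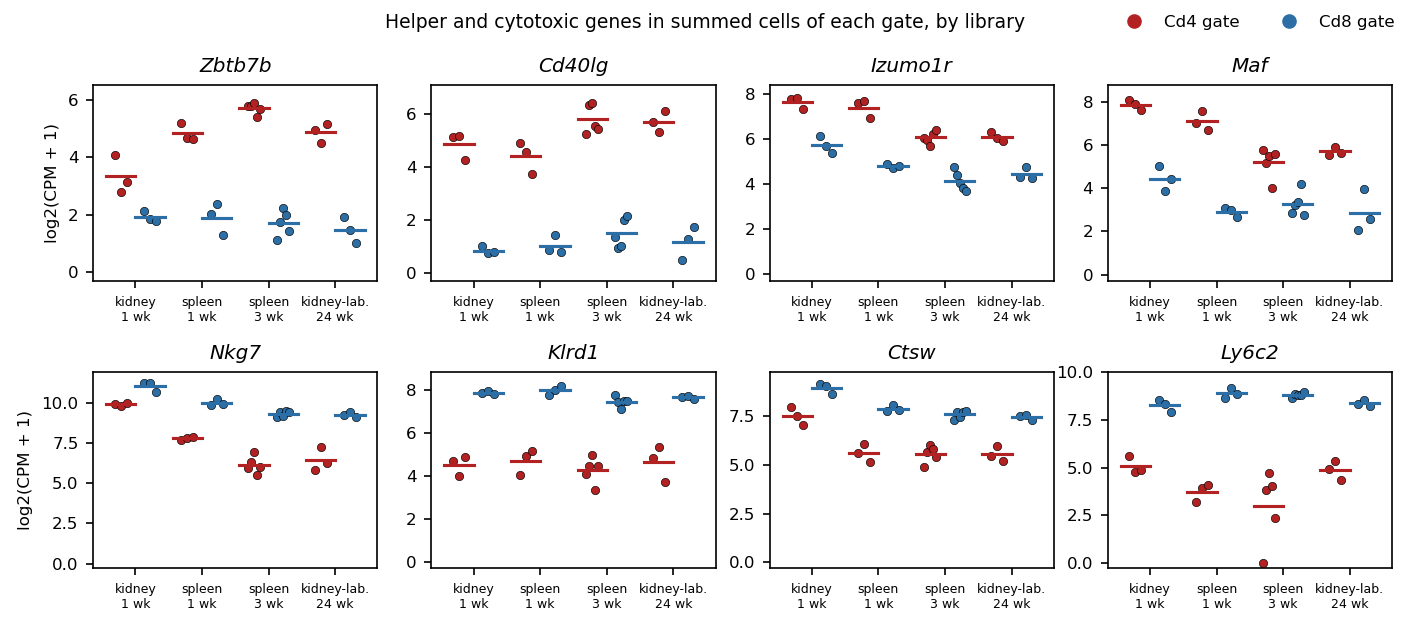
Levels on a log2(CPM + 1) scale of 4 helper genes (top) and 4 genes of CD8 cells (bottom) in the summed cells of the Cd4 gate (red) and the Cd8 gate (blue), 1 point per library with the mean of the log values as a bar. The libraries of the gates do not overlap for any of the 8 genes in any file except Maf in spleen at 3 weeks (15.3 to 53.2 CPM against 5.75 to 17.5 CPM). Such separation, in either direction, is seen in 9.8% to 27.9% of all genes tested, depending on the file. Zbtb7b in kidney at 1 week has 5.90 to 15.7 CPM against 2.44 to 3.38 CPM.

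The genes of cytotoxic CD8 cells were lower in the members. Of the 20 genes of this list, 16 of 20 tested were lower in kidney at 1 week, 16 of 20 in spleen at 1 week, 15 of 18 in spleen at 3 weeks and 13 of 18 at 24 weeks. The median log2 differences were -1.68, -2.20, -1.99 and -1.37. The background of genes called lower was 2.45%, 3.39%, 6.43% and 4.11% of those tested. Klrd1, the CD94 chain of natural killer receptors, was at 9.20 to 40.2 CPM in the 14 libraries of the Cd4 gate and at 135 to 294 CPM in those of the Cd8 gate. A few genes of the list went the other way. Fasl, which encodes the Fas ligand, was higher in the Cd4 gate in spleen at 3 weeks (0.86 ± 0.26) and at 24 weeks (1.39 ± 0.33) and lower in kidney at 1 week (-1.11 ± 0.27). Ifng, the interferon gamma gene, was higher in kidney at 1 week with library totals (0.48 ± 0.12, edgeR adjusted p = 0.0089) but not with TMM scaling (edgeR adjusted p = 0.067), and at 24 weeks it was higher with 16.5, 33.0 and 13.4 CPM in the Cd4 gate against 3.64, 6.83 and 2.86 CPM (2.22 ± 0.29, edgeR adjusted p = 5.6e-07).

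In kidney at 1 week the data went partly against reading every member as a helper cell. Nkg7, a granule protein gene, was found in 68.8% of the kidney members against 96.7% of the Cd8 gate, and in 49.2% ± 6.12 against 84.2% ± 4.46 (SD, n = 3 libraries) once each cell was thinned to 1000 UMIs. In spleen at 1 week, spleen at 3 weeks and the 24-week file, 18.6%, 6.69% and 7.61% of members had Nkg7 (thinned 12.8% ± 1.63, 4.15% ± 1.68 and 5.26% ± 3.91) against 80.5%, 81.2% and 82.5% of the Cd8 gate. A stricter gate did not lower the kidney share: Nkg7 was found in 67.5% of kidney members with 1 Cd4 UMI, 68.2% with 2 and 83.3% of the 24 with 3 or more. Those groups also differ in depth, with medians of 2145, 2931.5 and 4720.5 UMIs. Cd40lg was found in 7.50% and 12.1% of those with 1 and 2 Cd4 UMIs, and neither Cd40lg nor Zbtb7b in any of the 24 with 3 or more. A count of 0 in 24 cells allows up to 12.5% of cells with a UMI and sets no limit on expression, so nothing is read from it. Because of the Nkg7 shares the kidney members are called cells of the Cd4 gate, and the main kidney results are also given without the members that had an Nkg7 UMI.

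The Ly6c pair switched between the gates. Ly6c2 had 402, 458, 446, 452 and 510 CPM in the Cd8 gate of spleen at 3 weeks and 0, 13.0, 25.7, 15.3 and 4.14 CPM in the Cd4 gate. Ly6c1 had 2.31 to 8.05 CPM in the Cd8 gate and 62.7 to 125 CPM in the Cd4 gate of the same libraries. The log2 differences were -5.32 ± 0.14 for Ly6c2 and 4.53 ± 0.19 for Ly6c1, and in spleen at 1 week they were -5.18 ± 0.14 and 4.31 ± 0.29. Both encode surface proteins of activated or memory leukocytes. The genes are near-identical neighbours on chromosome 15 (chr15:75108158-75111970 and chr15:75044018-75048830, both minus strand), so reads could be split between them by the counting. Ly6c1 was nearly absent from members of the 1-week kidney, with 2 UMIs in all 330 cells.

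Immediate early genes, which respond within minutes to receptor signals and to tissue handling, were higher in the Cd4 gate outside the 1-week kidney. Of 10 genes tested, 6 were higher and none lower in spleen at 1 week, 7 higher and none lower in spleen at 3 weeks, and 6 higher and 1 lower at 24 weeks, whereas in the kidney at 1 week 1 was higher and 1 lower. Of all genes tested, 10.6%, 13%, 7.46% and 4.53% were higher in that order of files. With TMM scaling 5 of the 10 were higher in spleen at 1 week. Junb stood at 1179, 861 and 766 CPM in the Cd4 gate of spleen at 1 week against 784, 682 and 480 CPM in the Cd8 gate of the same libraries in that order. Its log2 differences were 0.54 ± 0.07 there, 0.66 ± 0.04 in spleen at 3 weeks and 0.70 ± 0.04 at 24 weeks, and 0.18 ± 0.07 in kidney at 1 week (edgeR adjusted p = 0.13). Whether the kidney differed from the spleen in this respect was tested at 1 week, and 1 of the 10 genes, Ier2, passed. Of all genes tested for this, 1.46% passed.

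Genes of regulatory cells other than Foxp3 were higher in the Cd4 gate although cells with a Foxp3 UMI had been left out. Of the genes of this list tested, 6 of 11 were higher and none lower in kidney at 1 week and 8 of 9 were higher and none lower in spleen at 1 week. In spleen at 3 weeks 4 of 6 were higher and 1 lower, and at 24 weeks 4 of 7 were higher and 1 lower, the lower gene being Ikzf2 in both. Of all genes tested, 4.53%, 10.6%, 13% and 7.46% were higher in that order of files. Tnfrsf4 and Izumo1r, higher in all 4 files, are also in the helper list and are counted in both. Some markers of other cells also differed between the gates. In spleen at 1 week Igkc (0.23 ± 0.07), Fcer1g (0.91 ± 0.25) and Cd74 (0.58 ± 0.13) were higher in the Cd4 gate, of which only Cd74 passed with TMM scaling, and Cd79b was lower. The sums there were 558 to 960 CPM in members and 503 to 819 CPM in the Cd8 gate for B cell, 161 to 260 and 136 to 178 CPM for myeloid and 186 to 281 and 97.9 to 246 CPM for class II markers. Igkc was also higher and Cd79b lower in the Cd4 gate of spleen at 3 weeks and at 24 weeks, and Fcer1g was lower in kidney at 1 week. The part of these markers in the differences between the gates was not tested. Tnfrsf4, the OX40 receptor of activated and regulatory CD4 cells, stood at 569, 431 and 442 CPM in kidney members and at 59.7, 34.0 and 69.7 CPM in the Cd8 gate (3.16 ± 0.13, edgeR adjusted p = 1.3e-19). A Foxp3 transcript can go undetected in a shallow cell, and how many members expressed it undetected was not tested. In kidney at 1 week 5 of 6 follicular helper genes tested were higher and Pdcd1 was lower, against 4.53% higher and 2.45% lower over all genes tested. Among the higher follicular helper genes Il21, a cytokine of these cells, was at 25.1, 8.86 and 23.5 CPM in members and at most 0.901 CPM in the Cd8 gate (4.75 ± 0.59, edgeR adjusted p = 2.6e-07).

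How many genes stood higher or lower in the Cd4 gate depended on the scaling. With plain library totals, 450 genes were higher and 243 lower in kidney at 1 week, 905 and 290 in spleen at 1 week, 991 and 489 in spleen at 3 weeks, and 618 and 341 at 24 weeks. With TMM scaling, which centres the bulk of genes, these were 300 and 416, 443 and 491, 590 and 687, and 360 and 487. DESeq2 called 165 and 143, 118 and 223, 230 and 353, and 102 and 192. TMM moved the median of all genes by -0.12 in kidney and -0.16 in spleen at 1 week, and by less than 0.1 in the other 2 files. The kidney count of 693 genes rested on each library, since 392, 430 and 207 genes passed without library 1, 2 and 3. In spleen at 1 week 684 and 796 of 1195 passed without library 1 and 3, and at 24 weeks 593 of 959 passed without library 3. The helper list kept none lower except 1 gene in spleen at 3 weeks under TMM, and 13 to 17 genes of the cytotoxic list were lower in each file under TMM.

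**Figure D3:**
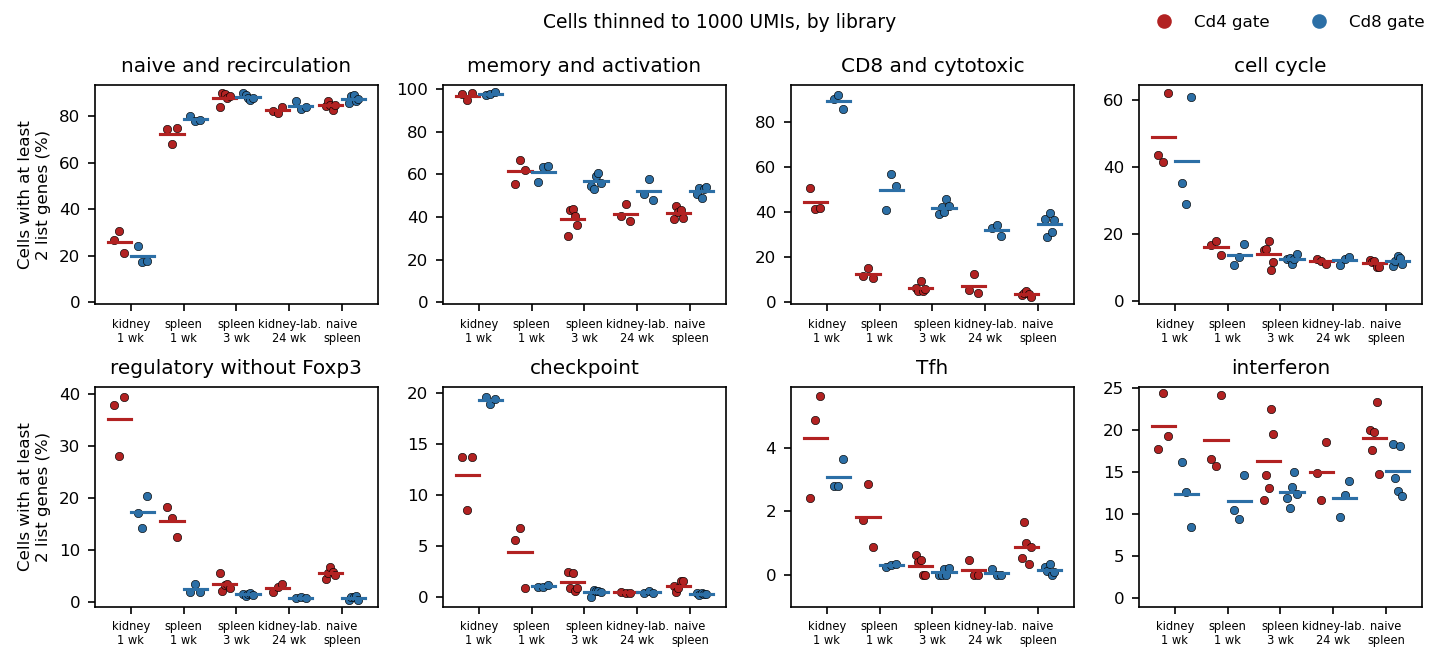
Percent of cells with at least 2 genes of a list after each cell was thinned to 1000 UMIs, in the Cd4 gate (red) and the Cd8 gate (blue), 1 point per library with the mean as a bar. Naive spleen is the CD45+ matrix under the same gates with a UMI of Cd3d, Cd3e or Cd3g also required. Within the Cd4 gate, kidney members at 1 week have the lowest naive share (mean 26.0%) and the highest memory share (97.0%), the kidney Cd8 gate standing at 19.8% and 98.0%, and means in naive spleen are 84.8% and 41.9%.

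At the level of single cells, the shares of members with recirculation and activation genes differed by file. After thinning to 1000 UMIs, 26.0% ± 4.79 of kidney members at 1 week had at least 2 of 13 naive and recirculation genes, against 72.6% ± 3.83 in spleen at 1 week, 88.1% ± 2.41 in spleen at 3 weeks and 82.6% ± 1.13 at 24 weeks (SD over libraries, n = 3, 3, 5 and 3). The memory and activation list ran the other way, with 97.0% ± 1.70, 61.4% ± 5.65, 39.0% ± 5.26 and 41.6% ± 4.09. Without thinning the naive shares were 53.9%, 89.0%, 98.8% and 99.5%, and the memory shares 98.6%, 82.8%, 82.0% and 89.2%. Cell cycle genes were found in 49.0% ± 11.4 of kidney members and in 11.9% to 16.2% of the others, but without thinning in 65.6%, 38.8%, 57.2% and 67.1% in the same order, so that the 24-week file then stood above the kidney at 1 week. The Cd8 gate of the same libraries ran alike, with thinned naive shares of 19.8%, 78.9%, 88.5% and 84.6%, memory shares of 98.0%, 61.2%, 56.8% and 52.3% and cell cycle shares of 41.8%, 13.7%, 12.6% and 12.2%. Of 32 differences between files over 8 lists, 20 had libraries that did not overlap, but none passed after adjustment (exact permutation test, two-sided; smallest adjusted p = 0.16). The smallest p that 3 against 3 libraries allow is 0.1, and for 3 against 5 it is 0.0357.

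At 1 week, members in the graft were set against members in the recipient spleen, which asks how these cells differ at the site of the graft. Kidney members had more transcripts of cell cycle and of memory and activation genes and fewer of naive and recirculation genes. All 15 cell cycle genes were higher, 15 of 21 memory and activation genes were higher and none lower, and 13 of 13 naive and recirculation genes were lower. The medians of the log2 difference were 1.99, 0.77 and -1.81, against 0.14 over all 5075 genes tested, of which 25.7% passed, 19.1% higher and 6.66% lower (967 and 338 genes by edgeR, 730 and 568 with TMM scaling, which moved the median of all genes by -0.17, or 488 and 289 with DESeq2).

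Among the recirculation genes, Igfbp4, a growth factor binding protein gene of naive T cells, fell furthest. It stood at 0, 11.8 and 0 CPM in the kidney libraries, from 4 UMIs in all, against 237, 148 and 182 CPM in the spleen libraries (-5.56 ± 0.45, adjusted p = 1.6e-09 by edgeR). Lef1, a transcription factor of naive and early memory T cells, had 94.2, 70.9 and 62.7 CPM against 406, 251 and 315 CPM (-2.11 ± 0.21). S1pr1, the receptor by which T cells leave tissue for blood, had 78.5, 127 and 75.8 CPM against 286, 261 and 305 CPM (-1.61 ± 0.19). In all 3 genes each kidney library was under each spleen library. Of all genes tested, 38.8% had libraries that did not overlap between the tissues, in either direction.

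Of the CD8 and cytotoxic list, 7 of 11 genes tested were higher in kidney members and none lower, and of the Th1 list 2 of 4 were higher (Ifng and Ccl5) and none lower. Ifng and Ccl5 are in both lists and are counted in both. Ccl4, which is in neither list and encodes a chemokine for T cells and monocytes, stood at 305, 325 and 389 CPM against 1.18, 1.74 and 2.64 CPM in spleen (7.30 ± 0.30, edgeR adjusted p = 4.4e-15). Ccl3, also in neither list, encodes a related chemokine and had 62.8, 325 and 230 CPM against 2.36, 0 and 0.88 CPM. Ifng had 201, 251 and 251 CPM against 22.4, 33.1 and 29.1 CPM (3.07 ± 0.21). In all 3 genes every kidney library was above every spleen library. The rule that names genes outside the lists between files asks for this, so it is no separate result for Ccl4 and Ccl3.

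Of the checkpoint list, 5 of 7 genes tested were higher and none lower. Ctla4, which restrains CD28 costimulation, had 308, 283 and 280 CPM in kidney against 67.1, 66.2 and 69.6 CPM in spleen (2.09 ± 0.17). Pdcd1, the PD-1 receptor gene, had 104, 106 and 123 CPM against 20.02, 24.4 and 9.68 CPM (2.72 ± 0.28). Mki67, a marker of dividing cells, had 352, 342 and 580 CPM against 57.7, 153 and 135 CPM (1.91 ± 0.24). For each of these the kidney libraries lay above the spleen libraries.

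The heat shock genes Hspa1a and Hspa1b were high in the 1-week kidney file in both gates. Hspa1a had 188, 207 and 251 CPM in kidney members and 1 UMI among the 995 spleen members, and Hspa1b had 104, 130 and 212 CPM and 1 UMI. In the Cd8 gate of the kidney Hspa1a was at 151, 245 and 194 CPM, and its difference between the gates there was 0.15 ± 0.12 (edgeR adjusted p = 0.59). Members of the kidney-labelled 24-week file had 9.92, 1.03 and 3.36 CPM of Hspa1a and 19.8, 3.09 and 5.37 CPM of Hspa1b. These are stress-induced chaperones, near-identical neighbours on chromosome 17 (chr17:34969190-34972156 and chr17:34956436-34959238, both minus strand). The kidney was digested with collagenase and the spleen was dissociated by hand, and tissue and handling cannot be told apart here. Markers of other cells moved in the same comparison. Summed B cell markers were 133 to 198 CPM in kidney members, with Ms4a1 at 0, and 558 to 960 CPM in spleen members, and both B cell genes tested, Igkc and Ighm, were lower in kidney. Of the myeloid list S100a9 was lower, at 0 in every kidney library against 27.1, 40.1 and 30.8 CPM in spleen, which is at least 11.3-fold lower. C1qb, too low to be tested, had 25.1, 5.90 and 31.4 CPM in kidney and 0 in every spleen library, at least 17.7-fold higher (bounds from 3 UMIs over the group at 0). The myeloid sums overlapped (154 to 270 and 161 to 260 CPM). Of the class II list Cd74 was lower, and its sums were 91.5 to 230.0 and 186 to 281 CPM. The part of these markers in the kidney differences was not tested.

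**Figure D4:**
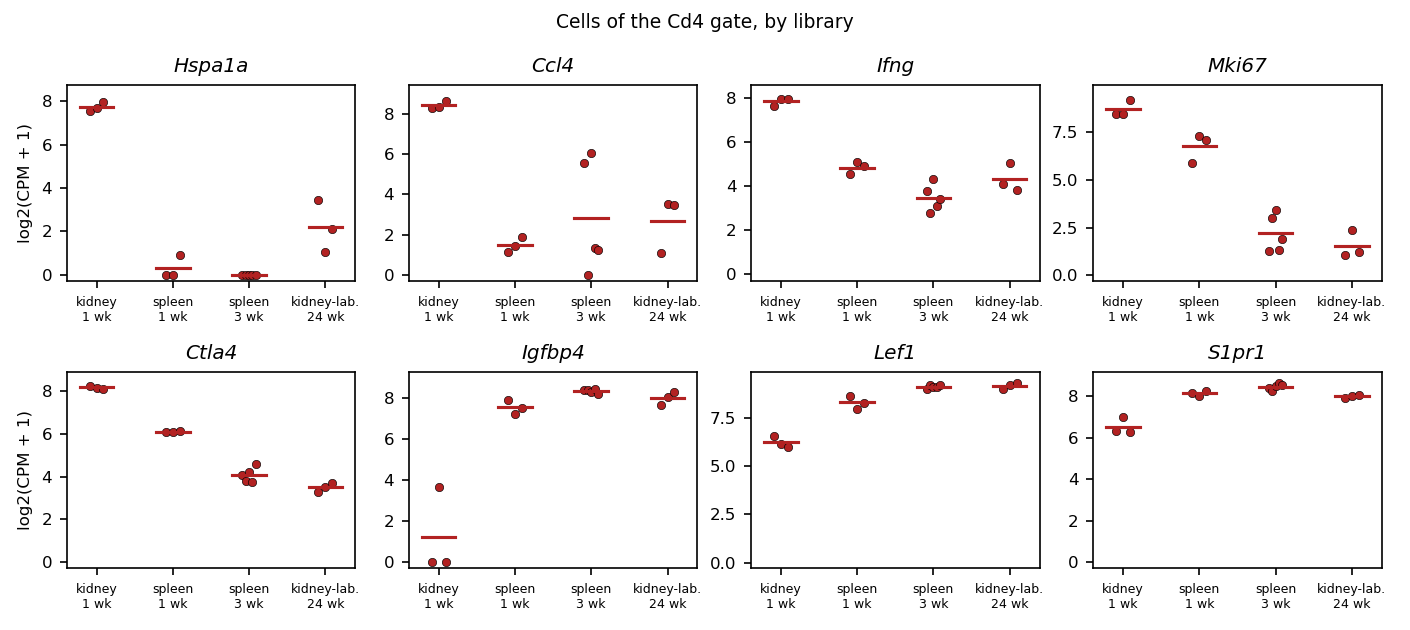
Levels on a log2(CPM + 1) scale of 8 genes in the summed cells of the Cd4 gate, 1 point per library with the mean of the log values as a bar. Kidney libraries at 1 week lie above the others for Hspa1a, Ccl4, Ifng, Mki67 and Ctla4, and below them for Igfbp4, Lef1 and S1pr1.

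Cytotoxic genes were also higher in kidney members, 7 of 11 tested and none lower. Nkg7 stood at 980, 895 and 1017 CPM against 205, 228 and 237 CPM (2.11 ± 0.15). When all members with an Nkg7 UMI were left out, an alternative chosen after seeing the data, 103 kidney cells remained, and the result held for most lists: of 3519 genes tested, 12 of 13 naive and recirculation genes were lower, 13 of 18 memory genes, 12 of 13 cell cycle genes and 4 of 5 checkpoint genes were higher, with none in the other direction. Of the cytotoxic list only 4 genes could then be tested, and 3 (Ccl5, Ctsw and Ifng) were higher. Of the regulatory list 3 of 6 were higher, with none lower in either list. The number of genes called was then 523.

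Kidney and spleen differed in the Cd8 gate too, and the interaction of gate and tissue asks which differences were of unequal size. Of 9305 genes tested, 1.46% passed, 0.505% higher and 0.956% lower (47 and 89 genes), meaning a kidney over spleen difference more positive or more negative in the Cd4 gate. The 136 genes became 89 and 84 without kidney library 1 and 2, and 90 and 226 without spleen library 1 and 2. Of the checkpoint genes, 5 of 9 had a lower kidney over spleen difference in the Cd4 gate and none a higher one. Pdcd1 stood at 257, 266 and 302 CPM in the kidney Cd8 gate and at 4.70, 6.89 and 11.03 CPM in the spleen Cd8 gate, so the Cd4 gate lay above the Cd8 gate in libraries 1 and 2 of the spleen and below it in every kidney library (interaction -2.37 ± 0.37, edgeR adjusted p = 0.00034). Fcer1g, a signalling chain of Fc and natural killer receptors, had 34.6, 5.90 and 34.0 CPM in kidney members against 192, 164 and 83.1 CPM in the kidney Cd8 gate, and 11.8, 26.1 and 26.4 CPM against 6.08, 11.7 and 15.4 CPM in spleen (-3.41 ± 0.43, edgeR adjusted p = 2.5e-05).

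Some genes differed more in the Cd4 gate. Ccl4 in the Cd8 gate was at 599, 550 and 356 CPM in kidney and at 36.7, 31.0 and 33.4 CPM in spleen, a smaller difference than among members (interaction 3.59 ± 0.52, edgeR adjusted p = 0.00012). The CD8 and cytotoxic list went both ways, with 4 of 20 genes higher, 2 lower and a median of -0.09 against -0.08 over all genes. The 4 were Nkg7 (1.05 ± 0.13), Ccl5 (1.02 ± 0.14), Ctsw (0.89 ± 0.19), which encodes cathepsin W of cytotoxic cells, and Crtam (2.46 ± 0.63). The 2 with the more negative difference in the Cd4 gate were Gzmb (-1.82 ± 0.41), the granzyme B gene, and Fasl (-1.78 ± 0.47), the Fas ligand gene. The Nkg7 share of kidney members given above moved with these values, and its part in them was not tested.

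**Figure D5:**
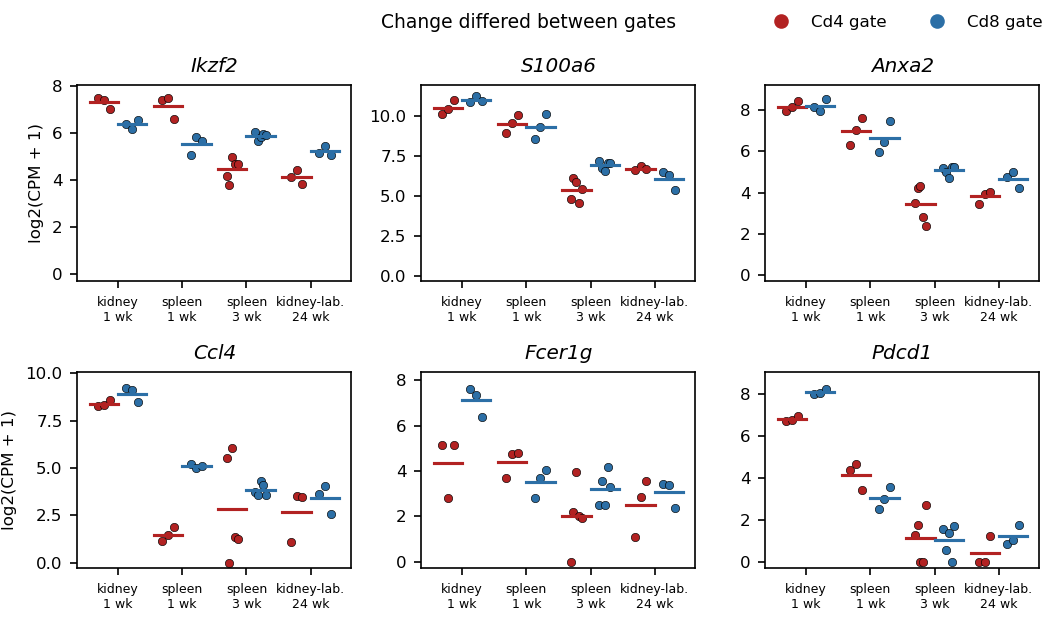
Levels on a log2(CPM + 1) scale of 6 genes whose difference between files was unequal in the Cd4 gate (red) and the Cd8 gate (blue), 1 point per library with the mean of the log values as a bar. Ikzf2 lies above the Cd8 gate in members at 1 week and below it in spleen at 3 weeks and in the 24-week file, and Pdcd1 lies below it in kidney at 1 week.

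From 1 to 3 weeks, spleen members had fewer transcripts of memory, regulatory and dividing cells at the later time. Of the lists, 16 of 20 memory and activation genes, 7 of 7 regulatory genes, 9 of 12 cell cycle genes and 4 of 5 checkpoint genes tested fell, with none higher. The medians were -1.72, -2.24, -2.03 and -1.82, against 0.11 over all 6533 genes tested. The thinned share of members with cell cycle genes did not separate the times. It was 13.9% at 3 weeks and 16.2% at 1 week, with libraries that overlapped (exact permutation test, adjusted p = 0.50). Without thinning that share was higher at 3 weeks, at 57.2% against 38.8%. Of the naive and recirculation genes 10 of 13 rose and 1, Klf2, fell. Of all genes tested 36.9% passed, 20.8% higher and 16% lower (1362 and 1047 genes by edgeR, 1105 and 1260 with TMM scaling, or 697 and 935 with DESeq2). Myeloid markers fell in the same comparison, 4 of 5 tested (Fcer1g, Tyrobp, S100a9 and Cst3) or 5 of 5 with TMM, with a median of -1.19, and so did Cd74 of the class II list. The summed myeloid level of members was 161 to 260 CPM at 1 week and 87.7 to 144 CPM at 3 weeks, and its part in these changes was not tested. This comparison shares the spleen libraries of 1 week with the one above.

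S100a6, a calcium-binding gene of memory and effector cells, stood at 494, 748 and 1081 CPM at 1 week and at 27.3, 68.4, 59.4, 23.01 and 42.8 CPM at 3 weeks (-4.11 ± 0.20, edgeR adjusted p = 3.1e-19). Hist1h1b, a linker histone made in S phase, stood at 147, 784 and 254 CPM and then at 1.61 to 7.08 CPM (-6.43 ± 0.43). Mki67 had 57.7, 153 and 135 CPM and then 1.44 to 9.64 CPM (-4.61 ± 0.33). No library of 3 weeks reached a library of 1 week for these genes. Of all genes tested, 33.9% had libraries that did not overlap, in either direction. For Hist1h1b, which is outside the lists, the naming rule asked for this.

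Helper genes did not move together over this time. Cd40lg rose by 1.5 ± 0.28 and Zbtb7b by 0.88 ± 0.21, while Tnfrsf4 (-2.24 ± 0.29), Maf (-1.81 ± 0.20) and Izumo1r (-1.32 ± 0.16) fell. Tnfrsf4 had 105, 66.2 and 59.0 CPM at 1 week and 10.1, 11.8, 11.2, 6.14 and 40.0 CPM at 3 weeks. The genes with the largest rises included Mau2, a cohesin loader, with 22.4, 17.4 and 24.7 CPM against 76.2, 76.7, 83.5, 70.6 and 67.6 CPM (1.75 ± 0.20), and Kmt2d, a histone methyltransferase, with a log2 rise of 1.67 ± 0.19. Mau2 was at 25.1 to 30.0 CPM and 65.3 to 82.1 CPM in the Cd8 gate of the same files, so the step was seen in both gates. Library batch and time cannot be told apart between these files.

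The interaction of gate and time set Ikzf2 apart. This gene encodes Helios, a transcription factor of regulatory T cells. Members had 172, 178 and 97.7 CPM in spleen at 1 week and 17.3, 13.0, 30.5, 24.5 and 24.8 CPM at 3 weeks, while the Cd8 gate had 32.9, 56.1 and 49.8 CPM and then 65.9, 50.6, 56.4, 61.0 and 59.8 CPM. The Cd4 gate was thus above the Cd8 gate in all 3 libraries at 1 week and below it in all 5 at 3 weeks (interaction -3.08 ± 0.24, edgeR adjusted p = 2.7e-13). At 24 weeks members had 16.5, 20.6 and 13.4 CPM against 34.8, 42.8 and 32.3 CPM. In kidney at 1 week members were the higher gate, with 179, 168 and 131 CPM against 83.8, 71.5 and 94.0 CPM.

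Of 8638 genes tested for this interaction, 1.2% passed, 0.243% higher and 0.961% lower (21 and 83 genes, or 60 and 60 with TMM scaling). The balance turned with DESeq2, which called 78 genes higher and 13 lower. The memory and activation list had 9 of 21 genes lower, meaning a more negative change among members, and none higher. S100a6 was at 380, 637 and 1113 CPM in the Cd8 gate at 1 week and at 94.0 to 144 CPM at 3 weeks, and its interaction was -1.60 ± 0.17 (edgeR adjusted p = 7.2e-09). Cxcr5, the receptor that draws follicular helper cells to B cell follicles, had 11.8, 22.7 and 13.2 CPM in members and 4.48 to 5.51 CPM in the Cd8 gate at 1 week. At 3 weeks members had 0 to 4.82 CPM and the Cd8 gate 6.14 to 9.25 CPM (interaction -3.14 ± 0.58, edgeR adjusted p = 0.00065). Summed B cell markers of members were 558 to 960 CPM at 1 week and 427 to 1046 CPM at 3 weeks.

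Members of the kidney-labelled 24-week file were set against those of the spleen at 3 weeks. Of the helper lineage list 3 of 8 genes tested were lower at 24 weeks and none higher. Cd40lg, Izumo1r, Lef1, Maf and Ly6c1 did not pass the test, with log2 differences of -0.09 ± 0.21, 0.00079 ± 0.17, 0.06 ± 0.10, 0.40 ± 0.21 and -0.08 ± 0.16, although Maf passed with TMM scaling (edgeR adjusted p = 0.028). The 3 lower helper genes were Zbtb7b (-0.80 ± 0.19), Il6ra (-0.68 ± 0.13), which encodes the interleukin receptor chain of that name, and Tnfsf8 (-0.61 ± 0.21), which encodes CD30 ligand and did not pass with TMM. Of 6635 genes tested, 26% passed, 4.76% higher and 21.3% lower (316 and 1410 genes), but TMM scaling moved the median of all genes by 0.20 and gave 770 and 652, and DESeq2 gave 488 and 349. The list calls moved with it: 9 of 13 naive genes were lower and 1 higher with library totals, against 1 and 1 with TMM, whereas the memory list had 5 of 19 higher or 9 of 19 with TMM and none lower by either. Markers of other cells were lower in the same comparison, 4 of 4 class II genes (H2-Aa, H2-Ab1, H2-Eb1 and Cd74; 3 with TMM) and 3 of 4 B cell genes (Cd79b, Ighm and Iglc2; 2 with TMM). Members had 79.9 to 91.5 CPM of the summed class II list at 24 weeks and 124 to 227 CPM in spleen at 3 weeks, and 297 to 621 against 427 to 1046 CPM of the B cell list, and the part of these in the list changes was not tested.

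Genes that held under both scalings included H2-T23, a nonclassical class I gene, with 158, 176 and 187 CPM at 24 weeks against 76.2, 37.8, 61.1, 53.7 and 49.7 CPM in spleen at 3 weeks (1.66 ± 0.15, edgeR adjusted p = 5.7e-11). H2-T23 stood at 176, 188 and 227 CPM in members of spleen at 1 week, and the spleen of 3 weeks was the low file. Fos, an immediate early gene, rose by 1.02 ± 0.15 and Junb by 0.87 ± 0.10. Bcl2, a survival gene, had 162, 208 and 133 CPM against 348 to 565 CPM (-1.32 ± 0.14), and Mau2 fell by 1.27 on the log2 scale. Tissue label, time and library batch all differ between these files and cannot be told apart.

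Members of the 24-week file were also set against kidney members at 1 week, a comparison that rests on the file's label. Whether the label is right was not tested. The summed kidney parenchyma level of its members was 0.671 to 2.20 CPM. It was 2.95 to 34.6 CPM in kidney members at 1 week. In members of spleen it was 0 to 8.80 CPM at 1 week and 4.82 to 7.67 CPM at 3 weeks, where 8 and 9 of the 20 genes were in the file. The kidney and spleen ranges at 1 week overlap, so these sums cannot settle the label. All 13 naive and recirculation genes were higher and all 15 cell cycle, 7 of 7 checkpoint, 8 of 8 regulatory and 18 of 21 memory genes tested were lower. The medians were 2.24, -5.54, -4.49, -3.43 and -2.24, against -0.25 over all 5877 genes, of which 40.6% passed, 10.5% higher and 30.1% lower (617 and 1771, 1075 and 1244 with TMM scaling, which moved the median by 0.27, or 660 and 943 with DESeq2). These libraries are shared with the comparisons above. Of 12 T cell receptor complex genes 7 were lower with library totals, against 2 higher and 1 lower with TMM. Markers of other cells moved too: 3 of 3 class II genes (H2-Aa, H2-Ab1 and Cd74; none with TMM) and Cst3 of the myeloid list were lower at 24 weeks, and Igkc was higher. The summed B cell level was 297 to 621 CPM against 133 to 198 CPM, and the part of these markers in the list changes was not tested.

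Several genes of the 1-week kidney were not detected at 24 weeks. Cenpf, a kinetochore gene, had 170, 118 and 274 CPM in kidney members at 1 week and 0 UMIs in 762 members at 24 weeks, at least 210-fold lower against a floor of 3 UMIs over the group. Nusap1, a spindle gene, was at least 206-fold lower and Nrgn, which encodes a calmodulin-binding protein, at least 118-fold lower by the same floor. Il21 was also at 0 UMIs, at least 21.5-fold lower. Gzmb, the granzyme B gene, had 91.1, 73.8 and 246 CPM at 1 week and 0, 2.06 and 0 CPM at 24 weeks.

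Genes of recirculating and resting cells were among those higher at 24 weeks. Igfbp4 stood at 200, 262 and 309 CPM (6.01 ± 0.42), Lef1 at 519, 595 and 650 CPM (2.97 ± 0.18) and Dapl1, a gene of resting T cells, at 305, 189 and 307 CPM against 18.8, 38.4 and 13.1 CPM (3.53 ± 0.29). Bach2, a repressor that keeps T cells resting, had 76.1, 90.7 and 95.3 CPM against 6.28, 14.8 and 20.9 CPM (2.60 ± 0.32). Without members that had an Nkg7 UMI, 12 of 13 naive genes were still higher and 16 of 18 memory, 13 of 14 cell cycle and 7 of 7 regulatory genes lower, and 1170 of 4908 genes were called. The low kidney parenchyma level of the 24-week file moved with this comparison, and its part was not tested.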

How the data were processed

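The authors sorted CD45+ cells, prepared 10x 3′ libraries, mapped reads with Cell Ranger to mm10 (named in the submitters' processing notes, without a version) and deposited raw UMI counts per gene and cell after calling cell types. All deposited cells were used. Members and gene lists were chosen with earlier results of these data known, and no list is independent evidence.

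UMI counts were summed per library tag and gate and scaled by plain library totals. The 6 genes of the gate stayed out of all tests. Genes were filtered by edgeR's filter on low counts and tested with edgeR 4.0.16 in R 4.3.3 (quasi-likelihood test, Benjamini-Hochberg adjustment, threshold 0.05). Gates were compared within libraries with the library as a block, files without a block, and unequal differences as an interaction of gate and file. The labels give no replicate numbers, and tags are libraries. Tests between files set a difference against the spread between libraries. Tests within libraries and of interactions set it against the spread of the gate difference over libraries. Shares of cells used 1000 UMIs per cell, at least 2 genes of a list, and exact permutation tests (scipy 1.17.1). Named genes were list genes, and for each comparison the 10 called genes with the largest rises and the 10 with the largest falls. These called genes needed a mean of at least 50 CPM. Within libraries they also needed the same direction in every library, and between files libraries that did not overlap. Other genes in the text are interaction genes of the same rule, without the condition on libraries. TMM, DESeq2 1.42.0, no filter, a stricter gate, Cd8 cells matched on UMIs and leaving out each library were alternatives, and scripts were tested on simulated data. Files were read with Python 3.11.15, numpy 2.4.6 and pandas 2.3.3. Intervals and floors cover counting error only. Coordinates are of the GENCODE annotation of GRCm38 (mm10).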

Additional observations from a re-analysis of the deposited data

Results flagged for a closer look

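In 7 of 67 groups examined, 1 library lay far from the others by Dixon's criterion, which chance alone does in about 1 in 20 groups. All 7 were levels in members of spleen at 3 weeks. The criterion was not applied to files with 3 libraries, so of the files described only spleen at 3 weeks could be flagged. That all 7 lie in this file is therefore no result. Library 3 was the highest for Gzma at 73.9 CPM, Ccl3 at 37.0 CPM, Il21 at 3.21 CPM, Igkc at 529 CPM and Fcer1g at 14.5 CPM. The Il21 value comes from fewer UMIs than the floor of 3 used elsewhere. Library 5 was the highest for Tnfrsf4 at 40.0 CPM and library 1 for Klf2 at 726 CPM.

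The kidney over spleen difference at 1 week was unequal between the gates by the edgeR interaction test for the 20 genes below. Values are log2 differences of differences. These are the genes with the largest called differences in each direction at the required mean level. Other list genes such as Nkg7, Ccl5 and Fasl also passed. The kidney over spleen difference was more negative in the Cd4 gate for Fcer1g (-3.41), Pdcd1 (-2.37), Cd200 (-2.0), Crem (-1.92), Gzmb (-1.82), Glrx (-1.50), Gpr183 (-1.32), Nrp1 (-1.16), Capg (-1.15) and Icos (-1.08). It was more positive for Ccl4 (3.59), Il6ra (2.01), Ly6c2 (1.98), Plac8 (1.87), Fam241a (1.72), Racgap1 (1.59), Ramp1 (1.49), Rgcc (1.23), Ctla2a (1.20) and Kcnq1ot1 (1.10).

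By the same rule, the spleen change from 1 to 3 weeks was unequal for 14 genes, and other list genes such as Cxcr5 also passed. The Cd4 gate had the more negative change for Ikzf2 (-3.08), Anxa2 (-1.82), Cst7 (-1.70), Ahnak (-1.62), S100a6 (-1.60), Il2rb (-1.42), S100a11 (-1.36), Pou2f2 (-1.35), Tnfsf8 (-1.20) and Nkg7 (-0.93), and the more positive one for Smad7 (0.44), Lef1 (0.40), Npc2 (0.38) and Tpt1 (0.15).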

How the results depend on the processing

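Counts of genes that passed depended on the gate, the tool and the fit, and the cause was not tested. Within libraries of kidney at 1 week 693 genes passed, but 308 with DESeq2, 401 with at least 2 Cd4 UMIs, 261 with no replicate block (the library) and 327 with Cd8 cells matched on UMIs. For the 24-week file 959 became 294, 500, 509 and 630 in that order. In spleen at 1 week 1195 became 341, 599 and 686 under the first 3 of these, and in spleen at 3 weeks 1480 became 583, 685, 961 and 739. Between files, DESeq2 gave 777 of 1305 for kidney against spleen at 1 week, 837 of 1726 for 24 weeks against spleen at 3 weeks and 61 of 136 for the interaction of gate and tissue. At least 2 Cd4 UMIs gave 558 of 1305, 965 of 2409 for spleen over time, 569 of 1726 and 1295 of 2388 for 24 weeks against kidney at 1 week. Leaving out members with an Nkg7 UMI, an alternative chosen after seeing the data, gave 523 of 1305 and 1170 of 2388. The gate share of 8.18% became 2.29% with at least 2 Cd4 UMIs, 4.07% after thinning and 10.1% without the 3 excluding genes.

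Leaving out 1 library gave 207 to 430, 593 to 1029, 684 to 1252 and 1152 to 1370 genes within libraries of kidney at 1 week, the 24-week file, spleen at 1 week and spleen at 3 weeks. It gave 1031 to 1355 for kidney against spleen, 1947 to 2312 for spleen over time, 1200 to 1635 for 24 weeks against spleen, 1946 to 2426 for 24 weeks against kidney, 84 to 226 and 71 to 111 for the interactions with tissue and time, and 20 to 22 for list shares without overlap.

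With at least 2 Cd4 UMIs, directions reversed for Klf2 (-0.24) and S1pr1 (-0.0041) in kidney at 1 week, Anxa2 at 24 weeks (0.014), Cst7 (0.086), Igkc (-0.17), Fcer1g (-0.10) and Cd74 (-0.54) in spleen at 1 week and Gzma in spleen at 3 weeks (0.099). Between files they reversed for Cd74 in kidney against spleen (0.60) and over time (0.82), and for Cd2 (0.019) and Cd28 (0.19) at 24 weeks against kidney. With matched Cd8 cells they reversed for Klrk1 at 24 weeks (0.27) and S100a4 in spleen at 3 weeks (-0.022). Without thinning, the naive share at 24 weeks less that in spleen reversed (0.694 points), as did the cell cycle share less that in kidney (1.48 points), and with at least 3 genes the follicular helper share over time (0.0037 points). Whether library numbers pair kidney and spleen is not given by the labels. Same-numbered libraries had correlations of 0.016, -0.067 and 0.031, and the other pairs ran from -0.101 to 0.084. With 3 libraries per file these values cannot settle the pairing. A replicate block on the number gave 1251 genes.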

Other observations

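In the CD45+ matrix of naive spleen, the same gate with a UMI of Cd3d, Cd3e or Cd3g also required took 2584 cells in 5 libraries. They entered no test and are shown only as list shares in the plot of thinned cells. Zbtb7b stood there at 46.8 to 55.8 CPM and Cd40lg at 43.9 to 96.1 CPM. Igfbp4 was at 189 to 253 CPM, Bach2 at 92.2 to 115 CPM and Mki67 at 16.5 to 32.4 CPM. Nkg7 was found in 4.61% of these cells. That matrix had not been restricted to CD8 cells by the authors' calls.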
